A study of Mus musculus with 6 samples.

Results

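The 10 genes described here make, store, receive, relay or restrain the transforming growth factor beta (TGF-beta) signal in microglia, the resident macrophages of the brain: Tgfb1, Nrros, Tgfbr1, Tgfbr2, Smad2, Smad3, Smad4, Smad7, Skil and Tgif1. They were taken by gene symbol from the deposited count table, where each stood on 1 line, so that they are 10 of 38207 genes and loci. The table holds 6 nanopore cDNA libraries of microglia isolated from the brains of wild-type (WT) mice, 3 labelled sham and 3 labelled tMCAO. The letters usually stand for a transient occlusion of the middle cerebral artery, an experimental stroke. Each library pools the cells of 30 mice, and both groups share genotype, tissue and cell type, with surgery as the difference the labels name. The sources used here do not give the strain, the age, the time after surgery or the isolation of the cells. Libraries are named by group and number. Nothing says which pools were prepared together, so the p-values below cover the spread from pool to pool, part of which may be technical.

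TGF-beta1 is secreted in a latent form, folded inside its own propeptide, and microglia hold that latent complex on their surface with NRROS (also called LRRC33), from which integrins release it. The active ligand brings together the receptor kinases TGFBR2 and TGFBR1, which phosphorylate SMAD2 and SMAD3. These join SMAD4 and enter the nucleus. SMAD7 blocks the receptors, while SKIL (SnoN) and TGIF1 repress transcription at SMAD-bound genes, and Smad7 and Skil are themselves induced by the pathway as feedback. In the brain, this signal is known for maintaining the resting identity of microglia, and mice without Nrros or microglial Tgfbr2 lose it.

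Totals of 1855495 to 2614512 counts per library put 1 count at 0.382 to 0.539 CPM (counts scaled to the same library total). In a principal component analysis, the first axis (53.5% of the variance) separated the groups. On the second (20.6%), tMCAO 3 stood at 53.5 while tMCAO 1 and 2 had -31.3 and -24.1, so the results that rest on tMCAO 3 are also given without it. All 10 microglial markers of a fixed list were detected, with summed levels of 27649 to 28207 CPM in sham and 24197 to 27459 CPM in tMCAO. Border-associated macrophage markers summed to 285 to 376 CPM in sham and 639 to 785 CPM in tMCAO (6 of 9 tested higher, 0 lower). Monocyte markers summed to 92.9 to 111 and 127 to 321 CPM (4 of 8 higher, 0 lower). Over all genes and loci tested, 9.17% were higher and 8.96% lower. Folr2 and the 4 monocyte markers called higher (Ccr2, Plac8, Fn1 and Cd44) would not have passed the filter on low counts on their sham libraries alone. These counts of higher markers therefore depend in part on the filter. The separation of the monocyte sums rests on Fn1: without it they were 89.9 to 109 and 106 to 224 CPM, which overlap (p = 0.3 in a two-sided exact permutation test, a sum added after the data were seen). Summed levels of astrocyte (172 to 597 CPM in sham, 74.4 to 117 in tMCAO), neuron (17.2 to 24.0 and 7.46 to 11.3) and erythroid markers (972 to 6076 and 233 to 394) were lower in tMCAO with no overlap. Choroid plexus markers summed to 8657 to 44746 CPM in sham and 2283 to 9991 in tMCAO, and neutrophil markers to 1888 to 2375 and 543 to 1927, with overlap in both. For the microglial, border-associated macrophage, monocyte, astrocyte, neuron and erythroid sums, p was 0.1 each in a two-sided exact permutation test (0.2 adjusted over 12 marker lists), the smallest that 3 libraries against 3 allow. In such bulk pools, fewer cells of a type and less RNA per cell cannot be told apart. The part of other cells in the differences below was not tested.

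The ligand gene Tgfb1, its anchor gene Nrros and the repressor genes Skil and Tgif1 rose after tMCAO, by 1.51-fold to 2.10-fold. The SMAD genes Smad2, Smad3, Smad4 and Smad7 and the receptor genes Tgfbr1 and Tgfbr2 did not pass the test. All 10 members passed the filter on low counts, 4 were called higher and 0 lower. Over all 13127 genes and loci tested, 18.1% were called, 9.17% as higher and 8.96% as lower. The members' median log2 fold change was 0.42, beside 0.00 over all tested genes, and 8 of the 10 were above 0. Called here means a Benjamini-Hochberg adjusted p under 0.05 over all 13127 in edgeR's quasi-likelihood test of tMCAO against sham. Log2 fold changes come from that fit, which rescales libraries by TMM factors, so they are not the ratio of the CPM means. Leaving out sham 1 left 1 member called higher, and leaving out sham 2, sham 3, tMCAO 1 or tMCAO 2 left 2. Leaving out tMCAO 3 gave 5.

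**Figure D1:**
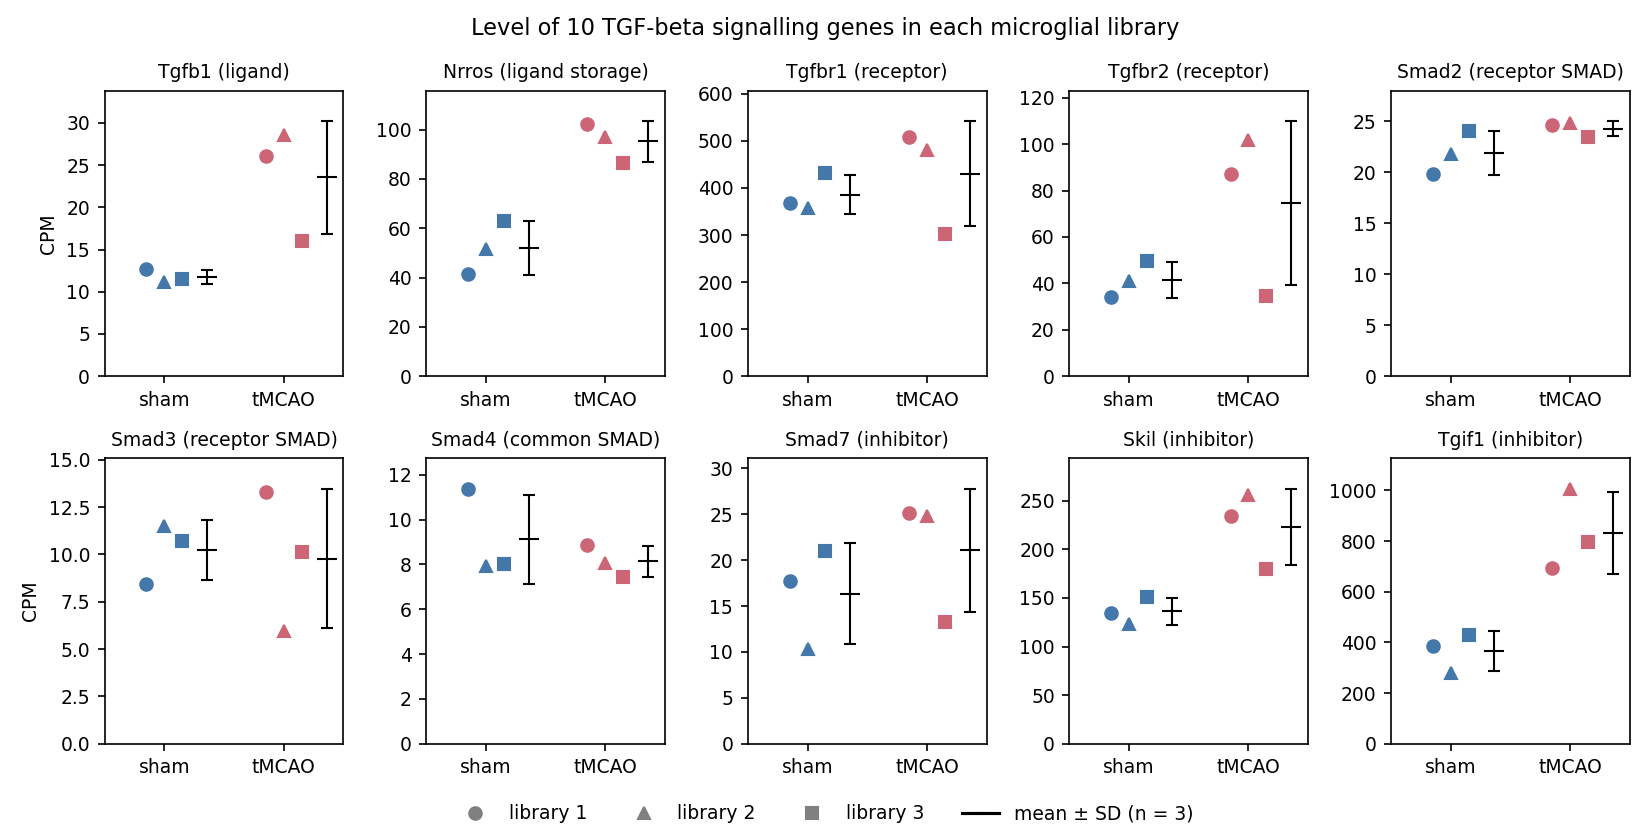
CPM (y axis, from 0, its own range in each panel) of the 10 members in the 3 sham and 3 tMCAO libraries. Symbols mark the library number, which is not known to pair libraries between groups, and the bar shows mean ± SD of 3 libraries. The groups do not overlap for Tgfb1, Nrros, Skil and Tgif1, and tMCAO 3 (square) lies below the other tMCAO libraries in 8 of the 10 panels.

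The stretches before the annotated starts of 3 of the 4 members called higher are shown, since SMAD proteins and TGIF1 bind short DNA motifs. They are the 250 bases before the outermost start in the RefSeq table of build GRCm38.p6, read 5′ to 3′ on the gene's strand. The table matched 6 of the 10 members, and Smad2, Smad4, Smad7 and Skil had no entry. Capitals mark matches, on either strand, to CAGAC (the SMAD box), GTCTAGAC (the SMAD palindrome), CTGTCA (the TGIF core) or TGANTCA (the AP-1 site). Apart from shared end letters, none of these motifs contains another.
Tgfb1, chr7:25686752-25687001, plus strand: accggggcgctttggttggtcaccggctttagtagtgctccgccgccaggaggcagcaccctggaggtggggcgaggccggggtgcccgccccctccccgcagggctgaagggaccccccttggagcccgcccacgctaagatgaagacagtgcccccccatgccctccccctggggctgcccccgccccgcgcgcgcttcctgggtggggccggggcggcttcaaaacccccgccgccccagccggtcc
Nrros, chr16:32165595-32165844, minus strand: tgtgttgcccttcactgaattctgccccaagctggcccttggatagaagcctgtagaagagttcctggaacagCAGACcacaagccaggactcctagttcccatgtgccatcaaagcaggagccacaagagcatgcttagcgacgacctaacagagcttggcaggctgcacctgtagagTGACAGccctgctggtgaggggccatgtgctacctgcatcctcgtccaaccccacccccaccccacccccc
Tgif1, chr17:70853533-70853782, minus strand: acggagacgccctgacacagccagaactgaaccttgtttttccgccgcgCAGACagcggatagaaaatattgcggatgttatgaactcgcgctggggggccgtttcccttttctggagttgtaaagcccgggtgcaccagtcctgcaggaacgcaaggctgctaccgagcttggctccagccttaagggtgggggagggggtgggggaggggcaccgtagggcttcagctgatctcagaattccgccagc

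The Nrros stretch held 1 CAGAC, starting at position -177 from the start, and 1 CTGTCA on the opposite strand, at -71. The Tgif1 stretch held 1 CAGAC at -201, and of the 4 other Tgif1 starts in the table, 2 also had a match to it. No match to any of the 4 motifs stood in the Tgfb1 stretch. Among members that did not pass, CAGAC also stood before Tgfbr2 (-160) and before the second of 2 Tgfbr1 starts (-203). The first Tgfbr1 start and Smad3 had no match. Of 32841 mouse stretches of the same length, 42.2% held CAGAC, 15.9% CTGTCA, 6.75% TGANTCA and 0.167% GTCTAGAC. A match is a description of letters, and the libraries carry no measure of binding.

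The ligand and its anchor were both higher after tMCAO. Tgfb1 (ENSMUSG00000002603), which encodes TGF-beta1, had 12.7, 11.1 and 11.5 CPM in sham 1 to 3 and 26.1, 28.6 and 16.0 CPM in tMCAO 1 to 3. All tMCAO values lay above all sham values, with tMCAO 3 nearest to sham. The means were 11.7 ± 0.810 and 23.5 ± 6.67 CPM (SD, n = 3), from only 28 to 53 counts per library. The log2 fold change was 0.88 ± 0.27 (SE), with a 95% interval of 0.30 to 1.45 and an adjusted p of 0.0373 in edgeR's quasi-likelihood test. This call was lost without sham 1, sham 2, sham 3, tMCAO 1 or tMCAO 2 (adjusted p from 0.0802 to 0.130 in edgeR's test), with upper-quartile scaling (0.0502), over known genes alone (0.0506) and with DESeq2 (0.104). Without tMCAO 3, the value was 1.08 (adjusted p = 0.0123 in edgeR's test).

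Nrros (ENSMUSG00000052384), which tethers latent TGF-beta1 on microglia, had 41.3, 51.5 and 63.1 CPM in sham and 102, 97.0 and 86.3 CPM in tMCAO. Every tMCAO library stood clear of every sham library. The means were 52.0 ± 10.9 and 95.2 ± 8.23 CPM, with a log2 fold change of 0.75 ± 0.19 (95% interval 0.35 to 1.15, adjusted p = 0.0148 in edgeR's quasi-likelihood test). Nrros kept its call without tMCAO 3 (0.80, adjusted p = 0.0153 in edgeR's test) and lost it without sham 1, the lowest sham library (0.59, adjusted p = 0.0976).

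The receptors differed in how far the tMCAO libraries spread. Tgfbr1 (ENSMUSG00000007613), the type I receptor kinase, had 367, 358 and 433 CPM in sham and 508, 481 and 302 CPM in tMCAO. The groups overlapped, since tMCAO 1 and 2 lay above all sham libraries and tMCAO 3 below them. The log2 fold change was 0.03 ± 0.17, with a 95% interval of -0.35 to 0.41 (adjusted p = 0.927 in edgeR's quasi-likelihood test).

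Tgfbr2 (ENSMUSG00000032440), the type II receptor kinase that binds the ligand first, had 34.2, 40.8 and 49.7 CPM in sham and 87.2, 102 and 34.6 CPM in tMCAO. Again tMCAO 1 and 2 were above every sham library, while tMCAO 3 lay within the sham range. The log2 fold change of 0.70 ± 0.34 did not pass (95% interval -0.06 to 1.47, adjusted p = 0.187 in edgeR's quasi-likelihood test). Without tMCAO 3 it was 1.05 and passed (adjusted p = 0.00423 in edgeR's test). It was 0.45 without tMCAO 2 (adjusted p = 0.426) and 0.56 without sham 1 (0.401). It also passed with no filter on low counts (0.00287) and with both sham 1 and tMCAO 3 left out (0.0185).

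Counts of Tgfbr2 per 100 counts of Tgfbr1, a ratio that library scaling cannot move, were 9.30, 11.4 and 11.5 in sham 1 to 3 and 17.2, 21.2 and 11.4 in tMCAO 1 to 3. In tMCAO 1 and 2 the ratio was above that of each sham library, and in tMCAO 3 it lay inside the sham range. This ratio was looked at after the values of both genes were seen, and is given with no test.

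The SMAD genes that carry the signal did not pass in either direction. Smad2 (ENSMUSG00000024563), a receptor-activated SMAD, had 19.8, 21.8 and 24.1 CPM in sham and 24.6, 24.8 and 23.4 CPM in tMCAO. The groups overlapped, and the log2 fold change was 0.03 ± 0.22 (95% interval -0.44 to 0.50, adjusted p = 0.948 in edgeR's quasi-likelihood test). The sign of so small a value changed with upper-quartile scaling, to -0.043 for Smad2 and to -0.043 for Tgfbr1.

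Smad3 (ENSMUSG00000032402), the other receptor-activated SMAD, had 8.43, 11.5 and 10.7 CPM in sham and 13.3, 5.93 and 10.1 CPM in tMCAO. The highest and the lowest of the 6 values were both tMCAO libraries. Its log2 fold change was -0.18 ± 0.35 (95% interval -0.93 to 0.57, adjusted p = 0.766 in edgeR's quasi-likelihood test). It was -0.42 without tMCAO 1, -0.32 without sham 1, -0.056 without sham 2 and 0.11 without tMCAO 2. Smad3 had 11 to 29 counts per library, where counting error alone is 30.2% of the lowest count.

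Smad4 (ENSMUSG00000024515), the partner shared by TGF-beta and bone morphogenetic protein (BMP) signalling, had 11.4, 7.93 and 8.03 CPM in sham and 8.86, 8.08 and 7.46 CPM in tMCAO. Sham 1 was the highest library and the rest lay close together. With a log2 fold change of -0.28 ± 0.32, its 95% interval ran from -0.97 to 0.41 (adjusted p = 0.593 in edgeR's quasi-likelihood test, 14 to 27 counts per library). Without sham 1 the value was -0.12. The intervals of Smad3 and Smad4 do not exclude falls of up to -0.93 and -0.97 (log2).

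Of the 3 inhibitors, Skil and Tgif1 rose and Smad7 did not pass. Smad7 (ENSMUSG00000025880), the feedback inhibitor at the receptor, had 17.7, 10.3 and 21.0 CPM in sham and 25.1, 24.8 and 13.3 CPM in tMCAO. As for Tgfbr2, tMCAO 1 and 2 lay above every sham library and tMCAO 3 inside the sham range. The log2 fold change was 0.25 ± 0.30 (95% interval -0.41 to 0.90, adjusted p = 0.619 in edgeR's quasi-likelihood test). It was 0.02 without sham 2, 0.14 without tMCAO 1, 0.15 without tMCAO 2, 0.44 without sham 3 and 0.48 without tMCAO 3, and passed in none of these.

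Skil (ENSMUSG00000027660), whose product SnoN holds SMAD complexes inactive on DNA, had 135, 123 and 151 CPM in sham and 234, 256 and 180 CPM in tMCAO. The groups did not overlap, and tMCAO 3 was nearest to sham. Means were 136 ± 14.2 and 223 ± 39.2 CPM, and the log2 fold change was 0.59 ± 0.16 (95% interval 0.24 to 0.94, adjusted p = 0.0230 in edgeR's quasi-likelihood test). The call was lost without sham 1, sham 2, sham 3, tMCAO 1 or tMCAO 2 (adjusted p from 0.0538 to 0.113 in edgeR's test). Without tMCAO 3 it was kept (0.71, adjusted p = 0.00603).

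Tgif1 (ENSMUSG00000047407), a homeodomain repressor that recruits histone deacetylases to SMAD2 and SMAD3, had 387, 280 and 430 CPM in sham and 692, 1007 and 795 CPM in tMCAO. The lowest tMCAO library stood well above the highest sham library, and here tMCAO 3 was not the lowest of its group. Means were 366 ± 77.2 and 831 ± 161 CPM, a log2 fold change of 1.07 ± 0.18 (95% interval 0.68 to 1.46, adjusted p = 0.00159 in edgeR's quasi-likelihood test). Tgif1 was called in each of the 15 other settings, at 0.93 to 1.22, and was the only member of which this held.

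**Figure D2:**
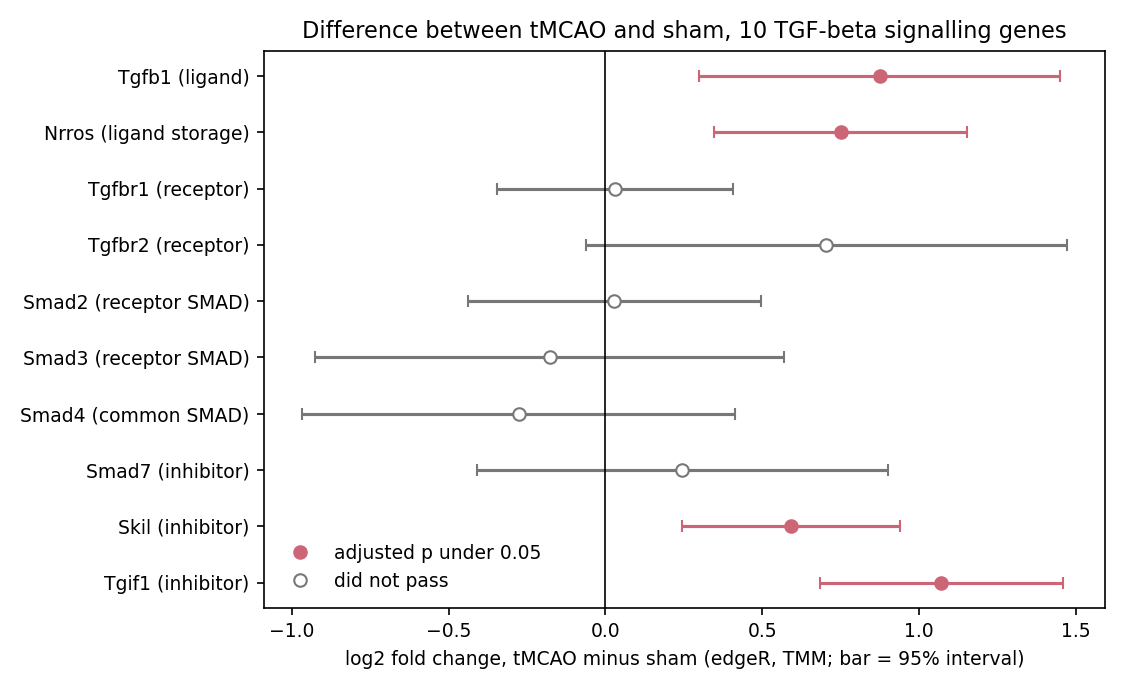
Log2 fold change of tMCAO minus sham (x axis) for the 10 members (y axis, with the role of each), with 95% intervals from edgeR's quasi-likelihood fit of 3 against 3 libraries. Filled points passed at an adjusted p under 0.05: Tgfb1, Nrros, Skil and Tgif1, whose intervals lie above 0.

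Across the members, 4 of 10 had groups whose CPM did not overlap, all higher in tMCAO, where 37.8% of all tested genes did not overlap (23.3% higher in tMCAO). Within the tMCAO group, tMCAO 3 was the lowest library for 8 of the 10 by CPM (6 of 10 after division by the TMM factors), the exceptions by CPM being Smad3 and Tgif1. Over all tested genes these shares were 46.5% and 37.7%. Within sham, sham 3 was the highest library for 7 of the 10 on both scales, beside 38.5% of all tested genes by CPM and 34.0% after division.

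**Figure D3:**
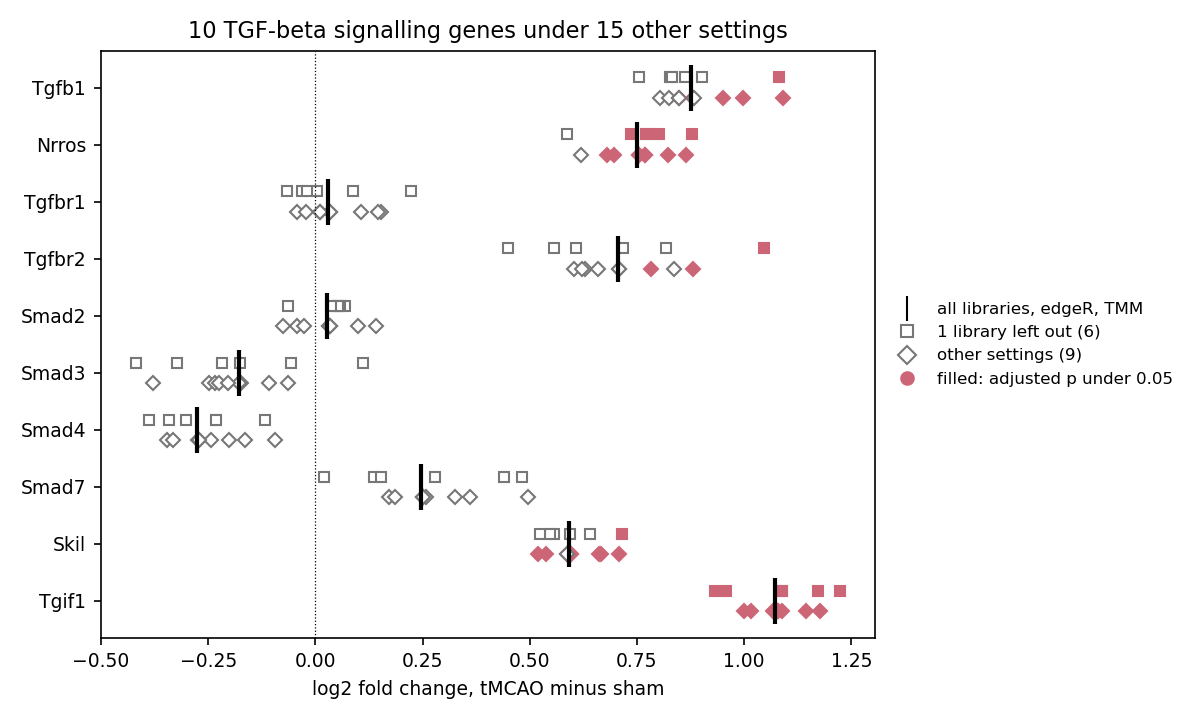
Log2 fold change (x axis) of the 10 members with all 6 libraries and the settings of the report (black bar), with 1 library left out (squares, 6 per gene) and in 9 other settings (diamonds). Filled symbols passed at an adjusted p under 0.05. Tgif1 is filled throughout, Nrros in 13, Skil in 9, Tgfb1 in 6 and Tgfbr2 in 3 of the 15.

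Other genes of the pathway were taken from lists by role, and were chosen with earlier results of these data known. Of 27 ligand and latency genes in the table, 9 passed the filter on low counts, 3 were called higher and 0 lower, a share of 33.3% beside 18.1% of all tested genes. Thbs1, called higher, passed the filter only through its tMCAO libraries, so this share depends in part on the filter. The median of the 9 was -0.02 (all tested genes 0.00), with -0.34 without tMCAO 1 and 0.36 without tMCAO 2, so its sign rests on single libraries. Tgfb2 and Tgfb3, the other TGF-beta ligands, were not among the 9. Thbs1, which encodes thrombospondin-1, an activator of latent TGF-beta, rose from 2.79 ± 0.265 to 33.8 ± 17.3 CPM (log2 fold change 3.45 ± 0.39). Furin, the protease that cleaves the TGF-beta propeptide, rose from 15.8 ± 1.77 to 36.8 ± 1.51 CPM (1.10 ± 0.21). Gdf15, a stress-induced ligand of the family, rose from 7.92 ± 2.50 to 36.1 ± 24.5 CPM (2.04 ± 0.52), with 33.0, 62.0 and 13.3 CPM in tMCAO 1 to 3. Gdf15 lost its call when any 1 sham library or tMCAO 1 was left out (0.0742 to 0.118 as adjusted p in edgeR's test) and with limma voom (0.0960). Itgb3, an integrin chain, had 9.88 ± 0.964 and 5.32 ± 1.79 CPM and did not pass (-0.997 ± 0.35, adjusted p = 0.0653 in edgeR's quasi-likelihood test). It passed with upper-quartile scaling (0.0485) and over known genes alone (0.0482).

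Among receptor and coreceptor genes, 11 of 20 lines in the table were tested, 1 was called higher and 1 lower, a share of 18.2% beside 18.1% of all tested genes. The median of 0.09 was 0.69 without sham 2, 0.51 without tMCAO 3, 0.19 without sham 1 and -0.13 without tMCAO 1. Dab2, an endocytic adaptor that binds TGF-beta receptors and SMADs, rose from 16.0 ± 2.87 to 60.0 ± 10.9 CPM (1.79 ± 0.22). Pmepa1, a gene induced by TGF-beta whose product restrains SMAD2 and SMAD3, fell from 59.3 ± 6.27 to 33.6 ± 5.03 CPM (-0.93 ± 0.20, adjusted p = 0.00649 in edgeR's quasi-likelihood test). Dab2 and Pmepa1 kept their calls in all 15 other settings. Without tMCAO 3, 2 genes of the list were called in each direction. The endoglin gene Eng (0.79 ± 0.34) and the type I receptor gene Acvrl1 (0.81 ± 0.33) missed the threshold (adjusted p of 0.123 and 0.103 by edgeR). Acvrl1 passed with no filter on low counts (0.0372) and was 0.53 without tMCAO 1.

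Of 33 SMAD partners and brakes in the table, 30 were tested, and 1 was called higher and 1 lower, a share of 6.67% beside 18.1% of all tested genes. The median was 0.07, with 0.01 without sham 1, -0.0042 without sham 3, 0.11 without tMCAO 3 and -0.0028 with upper-quartile scaling. Ep300, a histone acetyltransferase that SMAD3 recruits, rose from 17.6 ± 2.03 to 34.2 ± 2.44 CPM (0.83 ± 0.22). Ep300 was not called when sham 1, sham 3 or tMCAO 2 was left out (edgeR's adjusted p from 0.0544 to 0.0850 in edgeR's test), with DESeq2 (0.0570) or with both sham 1 and tMCAO 3 left out (0.0581). Sp1, a transcription factor that works with SMADs, fell from 31.1 ± 9.24 to 17.8 ± 2.08 CPM (-0.91 ± 0.25). Sp1 lost its call without sham 1, sham 3 or any of the 3 tMCAO libraries (0.0533 to 0.113 in edgeR's test), with library totals as the only scaling (0.0576) and with DESeq2 (0.0557). Crebbp, the paralog of Ep300 (0.54 ± 0.19, adjusted p = 0.0612 in edgeR's test), and the deacetylase gene Hdac1 (-0.49 ± 0.17, adjusted p = 0.0634) did not pass. Without tMCAO 3, 3 genes of the list were higher and 0 lower, and Crebbp passed (0.0464), as it did with library totals as the only scaling (0.0386) and with no filter on low counts (0.0159), and Hdac1 passed with upper-quartile scaling (0.0377) and over known genes alone (0.0374).

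In the sister BMP branch, 9 of 25 genes were tested, 1 was called higher and 2 lower (33.3%, beside 18.1% of all tested genes). Acvr1, called lower, passed the filter on low counts only through its sham libraries. This share and the median therefore depend in part on the filter. The median was -0.46, with -0.29 without tMCAO 3 and -0.31 with no filter on low counts. The type II receptor gene Bmpr2 fell from 29.7 ± 2.47 to 18.4 ± 4.12 CPM (-0.80 ± 0.24) and the type I receptor gene Acvr1 from 7.86 ± 0.973 to 3.46 ± 1.68 CPM (-1.29 ± 0.41). Bmpr2 kept its call in 7 of 15 other settings and Acvr1 in 3, and without any 1 of the 6 libraries Acvr1 did not pass (adjusted p from 0.0609 to 0.130 in edgeR's test). Bmpr2 did not pass without sham 1, sham 2, sham 3 or tMCAO 2 (0.0558 to 0.131), with library totals as the only scaling (0.0646) or with DESeq2 (0.0949). Id2, an inhibitor of helix-loop-helix factors that BMPs induce and TGF-beta regulates, rose from 152 ± 26.5 to 509 ± 149 CPM (1.64 ± 0.23) and kept its call in all 15 other settings. Without sham 2, 2 genes of the branch were called higher. Id4, of the same family, had 21.1 ± 16.9 and 6.64 ± 1.60 CPM and did not pass (-1.80 ± 0.79, adjusted p = 0.180 in edgeR's test). It passed without sham 3 (0.00310), with DESeq2 (0.0204) and with no filter on low counts (0.0226). Without sham 2 it was -0.98 (adjusted p = 0.292) and with limma voom -1.30 (0.486).

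**Figure D4:**
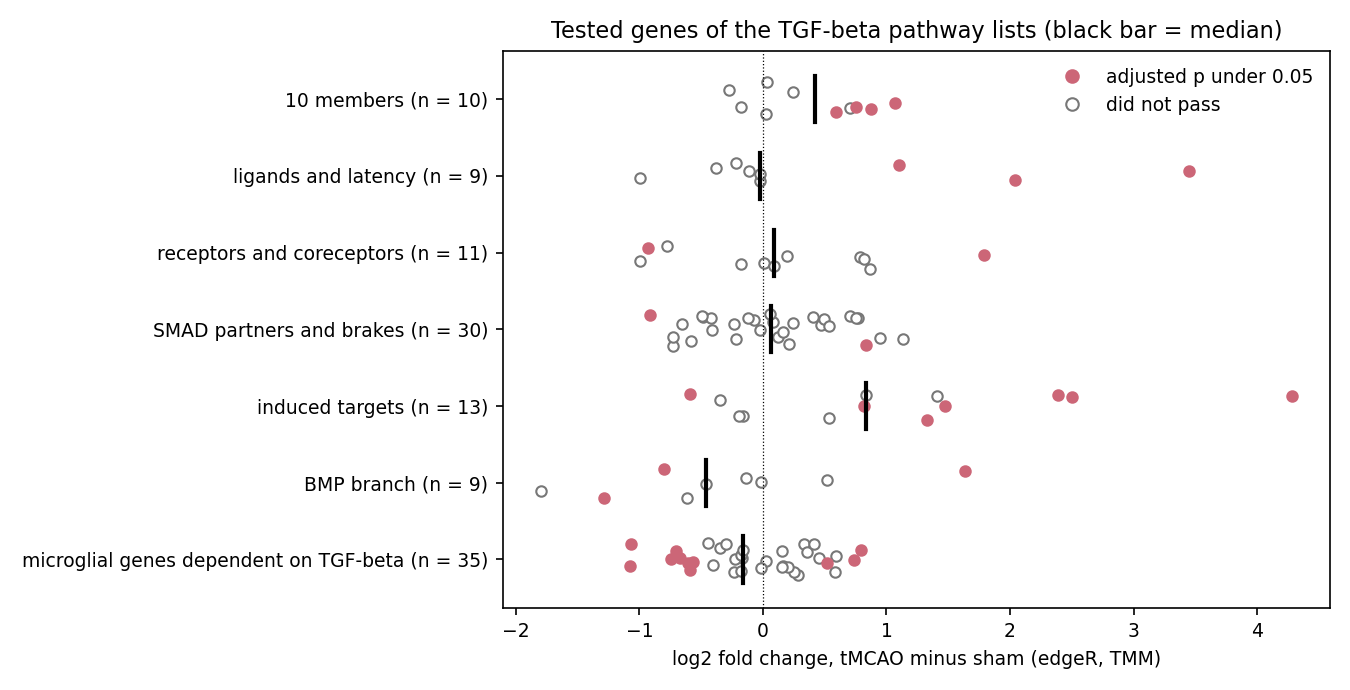
Log2 fold change of tMCAO minus sham (x axis) for each tested gene of the 10 members and of 6 lists (y axis, n tested), spread vertically to show points. Filled points passed at an adjusted p under 0.05 and black bars are medians, which run from -0.46 (BMP branch) to 0.84 (induced targets).

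The next list holds genes that TGF-beta induces in many cell types. It does not hold all of them. Pmepa1, which fell (-0.93), is counted with the receptors, and Skil, which rose (0.59), with the members. Of 24 in the table, 13 were tested, 6 were called higher and 1 lower, a share of 53.8% beside 18.1% of all tested genes. Fn1 and Bhlhe40 passed the filter on low counts only through their tMCAO libraries. This share and the median therefore depend in part on the filter. The median was 0.84 beside 0.00 over all tested genes, with 1.46 without sham 3 and 1.40 with no filter on low counts. Klf10, an early TGF-beta response gene, rose from 85.2 ± 19.4 to 162 ± 18.9 CPM (0.82 ± 0.19). Cdkn1a, a cell cycle inhibitor that p53 also induces, rose from 20.2 ± 1.73 to 116 ± 26.4 CPM (2.39 ± 0.20), and the stress gene Gadd45b from 20.8 ± 6.99 to 56.4 ± 12.5 CPM (1.33 ± 0.26). Fn1, the fibronectin gene, rose from 2.66 ± 0.594 to 58.1 ± 38.9 CPM (4.28 ± 0.65) and did not pass with limma voom (adjusted p = 0.0800). Fn1 also stands in the monocyte marker list, and the other 9 genes of that list summed to 89.9 to 109 CPM in sham and 224, 106 and 108 CPM in tMCAO 1 to 3.

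The other genes of that list called in either direction, named after their values were seen, were Tgfbi, Bhlhe40 and Rhob. Tgfbi, a matrix protein gene named for its induction by TGF-beta, rose from 32.8 ± 3.42 to 99.9 ± 56.2 CPM (1.48 ± 0.35), with 163, 83.5 and 53.8 CPM in tMCAO 1 to 3, and did not pass without sham 1, sham 2 or sham 3 (adjusted p from 0.0710 to 0.0840 in edgeR's test). Bhlhe40 rose from 2.58 ± 1.54 to 15.8 ± 9.36 CPM (2.51 ± 0.58) and did not pass without sham 2 or sham 3 (0.0555 to 0.0616) or with limma voom (0.0627). Rhob, a small GTPase gene, fell from 195 ± 29.6 to 141 ± 28.8 CPM (-0.59 ± 0.17), and its groups overlapped. Rhob was not called when sham 1, sham 3, tMCAO 2 or tMCAO 3 was left out (0.0625 to 0.134), nor with library totals as the only scaling (0.0921).

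Genes of resting microglia that depend on TGF-beta, as far as is known, were called in both directions. All 35 were tested, 8 were called lower and 3 higher, and 24 did not pass, a called share of 31.4% beside 18.1% of all tested genes. The median was -0.16. That median was -0.03 without sham 1, -0.04 without tMCAO 2, -0.01 without tMCAO 3, -0.05 with library totals as the only scaling, and 0.04 with sham 1 and tMCAO 3 both left out. Sparc, a secreted matrix-binding protein of microglia, fell from 2730 ± 373 to 1812 ± 100 CPM (-0.70 ± 0.14, adjusted p = 0.00366 in edgeR's quasi-likelihood test). The purine receptor genes P2ry12 (-0.74 ± 0.15) and P2ry13 (-1.07 ± 0.18) and the sialic acid receptor gene Siglech (-1.07 ± 0.14) also fell, and these 4 kept their calls in all 15 other settings. P2ry12 and Siglech also stand in the microglial marker list, so the 2 lists are not separate readings.

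The 3 that rose, named after their values were seen, were Gas6, C1qc and Lrrc3. Gas6, a ligand of receptors that recognise dying cells, rose from 144 ± 17.7 to 270 ± 34.0 CPM (0.79 ± 0.18) and did not pass without sham 3 (adjusted p = 0.0551 in edgeR's test). The complement gene C1qc rose from 2282 ± 435 to 3526 ± 425 CPM (0.52 ± 0.16) and Lrrc3 from 23.6 ± 1.91 to 42.8 ± 4.98 CPM (0.74 ± 0.20). C1qc did not pass without sham 1, sham 2 or tMCAO 3 (0.0522 to 0.135) or with upper-quartile scaling (0.0736) or DESeq2 (0.0648), nor Lrrc3 without sham 1, sham 3, tMCAO 1 or tMCAO 2 (0.0528 to 0.106) or with DESeq2 (0.0707). Without sham 1, 4 of the list were lower and 1 higher. Leaving out tMCAO 2 gave 5 lower, leaving out sham 3 gave 1 higher, and leaving out tMCAO 3 gave 6 higher.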

How the data were processed

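Processed values of 6 nanopore cDNA libraries of mouse microglia (3 sham, 3 tMCAO, as the sample titles give them) were analysed. Per the file headers, the deposited table gives each gene's raw read count and its CPM, which the authors scaled by each library's total. Deposited CPM differed from CPM recomputed from the counts by at most 4.87e-06. Reads were mapped with minimap2, per the submitters' processing notes. The sources used here name neither its version nor the build, annotation, counting rule or strand setting, and no coordinates come from the table. In GENCODE M21, no other gene shares exon bases with any of the 10 members. Of 38219 lines, 12 held annotation text and no values and were left out.

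Counts were tested with edgeR 4.0.16 (R 4.3.3): filterByExpr (minimum count 10, minimum total 15), TMM scaling, robust quasi-likelihood fit with group as the only term, and Benjamini-Hochberg adjustment over all 13127 genes and loci tested. The filter keeps a gene that reaches its level in as many libraries as 1 group holds, so a gene high in 1 group alone can pass. The SE is the absolute log2 fold change divided by the square root of F, and 95% intervals use the fit's degrees of freedom. The code was tested on simulated data. Other settings were 3 scalings, no filter (at least 1 count), known genes alone, DESeq2 1.42.0, limma voom (limma 3.58.1), a replicate block, each library left out, and sham 1 and tMCAO 3 left out together, 15 in all. Leaving 1 library out left at least 2 per group.

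The members, gene lists, markers and alternatives were chosen with earlier results of these data known. Named genes are the 10 members and, of each list, the up to 4 others with the smallest p, with exceptions stated beside their values. The libraries were amplified by PCR without molecular identifiers, so intervals cover counting and pool spread, not independent molecules. Motif letters were searched in RefSeq stretches.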

Additional observations from a re-analysis of the deposited data

How the results depend on the processing

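Of 150 values for the 10 members under 15 alternatives, 120 kept their direction and their side of the threshold. Values near 0 changed sign for Tgfbr1 (-0.043 with upper-quartile scaling, -0.022 over known genes alone, -0.066 to 0.22 with 1 library left out), Smad2 (-0.043, -0.026 and -0.064 to 0.069 likewise, and -0.074 with sham 1 and tMCAO 3 both left out) and Smad3 (-0.42 to 0.11 with 1 library left out, above 0 without tMCAO 2). None of these passed the test in either direction.

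Between 1 and 5 members were higher with 1 library left out, and none lower in any alternative. The labels give both groups the numbers 1 to 3. Deviations of same-numbered libraries from their group means correlated at -0.21, 0.02 and -0.17, and those of other pairs at -0.115 to 0.255. Such values from 3 libraries per group cannot show whether the numbers pair the libraries. With the replicate number as a block, 2 members were higher (Nrros and Tgif1), while 0 SMAD partners and brakes, 0 BMP branch genes and 0 induced targets were lower.

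Over all genes, 1204 were higher and 1176 lower. These counts were 2053 and 1986 with no filter on low counts, and 622 lower over known genes alone, where fewer genes are tested. With 4 libraries, sham 1 and tMCAO 3 left out, 652 were lower, and 0 SMAD partners, 0 BMP branch genes and 0 induced targets were lower, and 2 receptors and coreceptors each higher and lower. With 1 library left out, 700 to 1423 were higher (700 without sham 1, 766 without sham 3) and 554 to 1167 lower (554 without sham 1). Library totals alone shifted the median of all genes to 0.11 (log2), with 3 SMAD partners higher and 0 lower, 0 BMP branch genes lower and 0 induced targets lower. Upper-quartile scaling and known genes alone each gave 2 SMAD partners lower and 1 ligand and latency gene lower. No filter gave 4 SMAD partners, 2 receptors and coreceptors and 7 TGF-beta-dependent microglial genes higher. DESeq2 gave 0 SMAD partners higher and 0 lower, 1 BMP branch gene lower, 0 induced targets lower and 1 microglial gene higher, and limma voom 1 BMP branch gene lower. The cause of these shifts was not tested.

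With 1 library left out, counts of higher and lower genes ran from 2 to 3 and 0 to 0 for ligands and latency, 1 to 2 and 1 to 2 for receptors, 0 to 3 and 0 to 1 for SMAD partners, 1 to 2 and 0 to 1 for the BMP branch, 4 to 7 and 0 to 1 for induced targets, and 1 to 6 and 4 to 8 for microglial genes. Of the members, Smad3 and Smad4 had the lowest depth, with 11 to 29 counts per library.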
